A study of Mus musculus with 4 samples.

Results

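Bone morphogenetic proteins (BMPs) are secreted ligands of the TGF-beta superfamily. They assemble type I and type II receptors at the cell surface, which phosphorylate SMAD1, SMAD5 and SMAD9. These SMADs enter the nucleus with SMAD4 and raise transcription of the Id genes, whose products block basic helix-loop-helix transcription factors. Secreted antagonists such as Gremlin and Noggin bind the ligands and keep them from the receptors. In vascular smooth muscle, BMP signalling is known for its part in the control of growth and of the contractile state. The genes described here are the ligands Bmp2 and Bmp4, the antagonists and modulators Grem1, Nog and Bmper, the pseudoreceptor Bambi, and the targets Id1, Id2 and Id3. They were chosen by name, with earlier results of these data known, and found through the accession of each non-control probe. This gave 13 probes of 41174 and all 9 genes, out of 18217 genes with a symbol.

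The data came from microvascular smooth muscle cells of male C57BL6 mice, all labelled as Rap1a knockout. Cells transduced with a shuttle vector named RapCA, a name the labels do not spell out, were set against cells transduced with the empty shuttle vector. Rap1a encodes a small GTPase of the Ras family, and the title presents the comparison as a rescue against a knockout. Virus was given overnight in serum-free medium at plating, and the cells then recovered for 48 h at 0.5% serum, having been grown at 10% serum. Each of 4 two-colour Agilent arrays held 1 RapCA RNA in Cy3 and 1 vector RNA in Cy5, so that dye and vector cannot be told apart. The 4 arrays are called biological replicates without a statement that they came from separate cultures or animals, and the p-values measure the spread between these arrays only.

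Ratios are log2 of the RapCA-labelled over the vector-labelled signal, and levels are log2 of the normalized signal of that channel. The single Rap1a probe was lower in the RapCA-labelled channel, while the title presents a rescue against a knockout. Although all cells are labelled as Rap1a knockout, the probe cleared the background in both channels of every array. The source of this signal was not tested. The probe had mean log2 levels of 11.68 in the RapCA-labelled channel and 12.74 in the vector-labelled channel. Its ratios were -0.46, -1.02, -1.31 and -1.47 on replicates 1 to 4, that is less signal in the RapCA-labelled channel on every array (mean -1.07 ± 0.44, SD, n = 4; limma adjusted p = 0.00204). Its position relative to the deleted part of the gene is not known here, so every direction below follows the dye labels and would turn if these were exchanged. Replicate 1 stood apart: over 23485 probes, the correlation of its ratios with each other array was 0.69 to 0.78, whereas replicates 2 to 4 reached 0.93 to 0.98 among themselves. Its vector-labelled channel was dim, with a median net signal of 37 against 75.5 to 83.5 on replicates 2 to 4. In that channel 51.3% of probes were above background, against 60.1% to 61.9%. Its RapCA-labelled channel had a median net signal of 43, against 35.5 to 43. Of 8 smooth muscle markers, 6 cleared the background in both channels of every array, and Des and Myocd were above it on none. Of these 6, Tagln (2.13), Lmod1 (1.25) and Acta2 (0.54) had higher ratios in the RapCA-labelled channel, and the mean log2 level over the 8 was 11.38 to 11.48 there and 10.76 to 11.13 in the vector-labelled channel. Of 6 fibroblast markers tested, 5 were higher in the RapCA-labelled channel, and the mean log2 level over the 7 on the array was 10.17 to 10.36 in the RapCA-labelled channel and 8.49 to 8.58 in the vector-labelled channel. Of 5 pericyte markers, Pdgfrb (1.78) and Cspg4 (0.88) were higher, Kcnj8 (-0.40) was lower, and Rgs5 and Abcc9 were above background in neither channel. Of 7 endothelial markers, Vwf (-2.03) and Kdr (-0.75) were lower, Tek (1.16) was higher, and Cdh5, Pecam1, Tie1 and Emcn were above background in neither channel. The mean level over the 7 was 6.55 to 6.63 in the RapCA-labelled channel and 6.76 to 6.86 in the vector-labelled channel. Of 5 macrophage markers, Cd14 and Csf1r were above background in both channels and did not pass, and Ptprc, Adgre1 and Mrc1 were above it in neither. Of 4 epithelial markers, Krt8 (-1.04) was lower, and Cdh1 and Epcam were above background in neither channel. Krt18 was above background only in the vector-labelled channel, on 3 arrays, and was not tested. Fewer cells of a type and less RNA per cell cannot be told apart in such bulk RNA, and the part of these marker shifts in the results was not tested.

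Upstream sequence was at hand from RefSeq (build GRCm38.p6) for 5 of the 9 genes. The windows of Grem1 and Bmp4, which fell, and of Id2 and Id3, which did not pass the test, are shown to set the letters upstream of changed genes beside those of known SMAD targets. The window of Bmper, which did not pass either, is not shown. Id1, the Id target that passed, had no window at hand. Each holds the 250 bases before the annotated gene start, 5′ to 3′ on the strand of the gene. The Grem1 window is chr2:113758649-113758898 on the minus strand, that of Bmp4 chr14:46390670-46390919 on the minus strand, that of Id2 chr12:25096093-25096342 on the minus strand, and that of Id3 chr4:136143572-136143821 on the plus strand. Capitals mark GGCGCC, a GC-rich motif of BMP-responsive SMADs, and CAGAC, a core SMAD-binding motif, each searched on both strands.
Grem1: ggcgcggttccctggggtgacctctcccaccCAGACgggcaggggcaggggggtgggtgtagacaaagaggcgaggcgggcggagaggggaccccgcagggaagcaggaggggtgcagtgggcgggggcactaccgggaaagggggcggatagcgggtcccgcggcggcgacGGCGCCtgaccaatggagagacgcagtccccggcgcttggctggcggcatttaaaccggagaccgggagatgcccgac
Bmp4: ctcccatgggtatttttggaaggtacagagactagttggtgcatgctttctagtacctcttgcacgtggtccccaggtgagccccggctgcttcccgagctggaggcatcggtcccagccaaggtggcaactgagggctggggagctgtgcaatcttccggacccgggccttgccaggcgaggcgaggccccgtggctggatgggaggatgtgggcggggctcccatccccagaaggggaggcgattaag
Id2: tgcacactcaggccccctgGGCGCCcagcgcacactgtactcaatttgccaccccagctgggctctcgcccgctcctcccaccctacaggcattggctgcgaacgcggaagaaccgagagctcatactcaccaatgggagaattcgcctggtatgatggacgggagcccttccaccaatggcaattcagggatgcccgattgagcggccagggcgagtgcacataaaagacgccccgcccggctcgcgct
Id3: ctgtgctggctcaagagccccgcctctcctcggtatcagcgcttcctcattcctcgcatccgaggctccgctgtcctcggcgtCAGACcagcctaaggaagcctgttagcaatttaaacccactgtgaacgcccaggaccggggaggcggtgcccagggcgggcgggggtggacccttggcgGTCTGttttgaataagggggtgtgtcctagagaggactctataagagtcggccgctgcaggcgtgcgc
The motif GGCGCC occurred once in the windows of Grem1 and Id2 and in 9.59% of all 32851 windows of this length. CAGAC occurred at 1 place upstream of Grem1 and at 2 places upstream of Id3, and was present in 42.2% of all windows. The Bmp4 window held neither. These matches describe the letters of the windows and not bound sites.

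Between the channels, Grem1, Bambi and Bmp4 were lower and Id1 was higher in the RapCA-labelled channel, and the other 5 genes did not pass. In all, 23497 probes cleared the background on every array in the same channel or in both. Of these, 49.6% passed a Benjamini-Hochberg adjusted p of 0.05 in limma's test of the mean ratio against 0. By the brightest probe of each of 12388 genes, 53.9% passed, 28.9% higher and 24.9% lower. All 9 genes were tested, through 12 of their 13 probes, and 4 of the 9 passed, 1 higher and 3 lower. That share was no larger than the one over all genes. The median ratio of the 9 genes was -0.17, against 0.02 over all genes tested. Without replicate 1, which stood apart, 7 of the 9 passed, 2 higher and 5 lower, beside 8814 of 12387 genes in all.

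**Figure D1:**
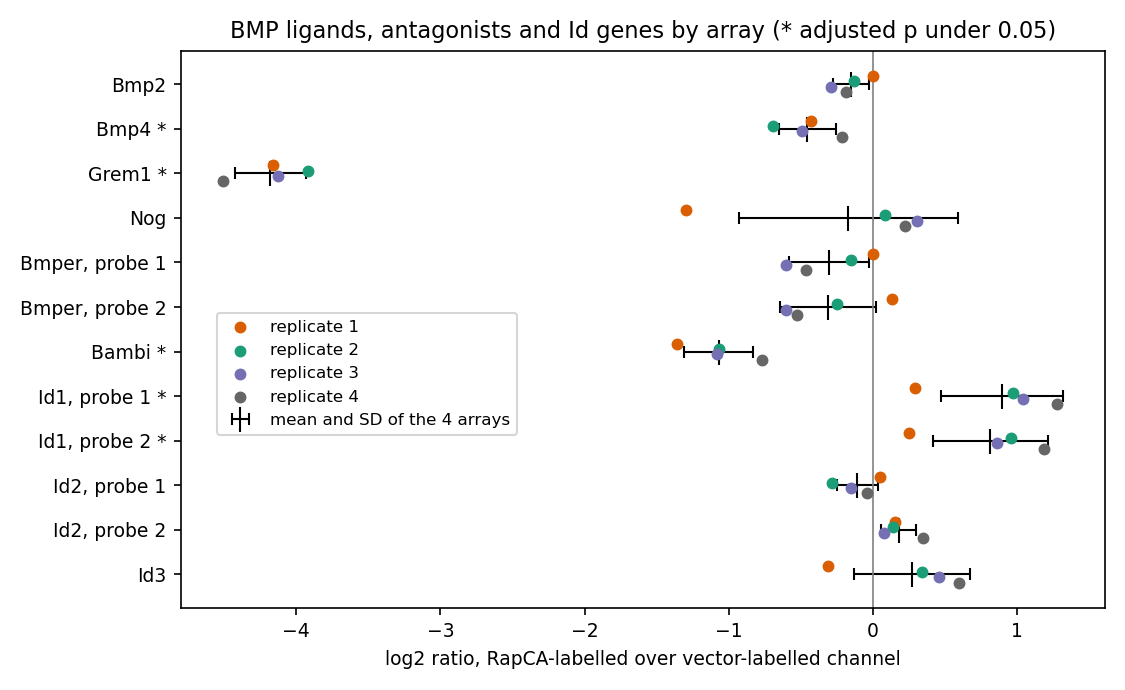
Log2 ratio of each tested probe, RapCA-labelled channel over vector-labelled channel, on each of the 4 arrays (points), with the mean and SD of the arrays (black). Grem1 lies between -4.51 and -3.92, far to the left of the other probes, and Nog, Id1 and Id3 have replicate 1 to the left of the other 3 arrays.

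Of the ligand genes, Bmp4 was lower in the RapCA-labelled channel and Bmp2 did not pass. Bmp4 had log2 levels of 7.16, 6.94, 7.09 and 7.18 in the RapCA-labelled channel on replicates 1 to 4, against 7.58, 7.63, 7.58 and 7.40 in the vector-labelled channel. The channels did not overlap, and every array had the lower level in the RapCA-labelled channel. The mean ratio was -0.45 ± 0.20 (SD, n = 4; limma adjusted p = 0.0131), a 1.37-fold fall. The call was lost without replicate 2, at a ratio of -0.38 (limma adjusted p = 0.101), without replicate 3, at -0.44 (0.0754), and with median centring in place of loess, at -0.56 (0.0565). The scanner software's own ratios, which carry no added offset, gave -0.80. Bmp2, which like Bmp4 encodes a ligand of the type I receptors ALK3 and ALK6, had levels of 7.80 to 7.95 in the RapCA-labelled channel and 7.93 to 8.19 in the vector-labelled channel. Its ratio of -0.15 ± 0.12 did not pass (limma adjusted p = 0.246), with a 95% interval from -0.39 to 0.08. Without replicate 1 it was -0.20 and passed narrowly (limma adjusted p = 0.0457).

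Among the secreted antagonists, Grem1 was lower in the RapCA-labelled channel, and Nog and Bmper did not pass. Grem1 encodes Gremlin 1, a cystine-knot protein that binds BMP2, BMP4 and BMP7. Its log2 levels were 8.19, 9.31, 9.38 and 9.22 in the RapCA-labelled channel on replicates 1 to 4, against 12.35, 13.23, 13.50 and 13.73 in the vector-labelled channel. The highest level in the RapCA-labelled channel lay well below the lowest in the vector-labelled channel. In both channels Grem1 had its lowest level on replicate 1. The probe cleared the background in both channels of every array, so the fold rests on measured signal on both sides. Per array the ratios were -4.16, -3.92, -4.13 and -4.51, with a mean of -4.18 ± 0.24 (SD, n = 4; limma adjusted p = 6.97e-06), an 18.1-fold fall. Only 12 of the 12388 genes tested had a lower ratio. Leaving out each array in turn moved the mean between -4.27 and -4.07.

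By root mean square difference of the log2 ratio over the 4 arrays, the genes most like Grem1 were Gsta1 at 0.29, Blnk at 0.35 and Phf11a at 0.36. Their mean ratios were -3.94, -4.49 and -3.96. Gsta1 belongs to the glutathione S-transferases and Blnk encodes a signalling adaptor of B cells.

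Nog encodes Noggin, which binds BMP ligands and hides their receptor-binding surfaces. Its levels were 7.44, 7.31, 7.35 and 7.56 in the RapCA-labelled channel, against 8.74, 7.22, 7.05 and 7.33 in the vector-labelled channel. The vector level of replicate 1 was above all others, and the ratio of that array, -1.30, opposed ratios of 0.09 to 0.31 on replicates 2 to 4. The mean of -0.17 ± 0.76 did not pass (limma adjusted p = 0.624), with a 95% interval from -0.79 to 0.45. Without replicate 1 it turned to 0.21 and did not pass either (limma adjusted p = 0.0523). Bmper encodes a secreted BMP-binding protein that can dampen or promote signalling. Its probes A_51_P488196 and A_52_P437421 had ratios of -0.30 ± 0.28 and -0.31 ± 0.33 and did not pass (limma adjusted p = 0.0898 and 0.108). On both probes replicate 1 had a ratio at or above 0 and replicates 2 to 4 were between -0.61 and -0.15. Without replicate 1 both passed, at -0.41 and -0.46 (limma adjusted p = 0.0118 and 0.00435).

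Bambi encodes a transmembrane pseudoreceptor that resembles type I receptors, lacks a kinase domain and blocks receptor complexes. Through probe A_51_P248819 its levels were 10.79, 10.49, 10.41 and 10.60 in the RapCA-labelled channel, against 12.15, 11.56, 11.50 and 11.37 in the vector-labelled channel. The channels did not overlap. The mean ratio was -1.07 ± 0.24 (SD, n = 4; limma adjusted p = 0.000441), a 2.10-fold fall, and leaving out each array in turn gave -1.17 to -0.97. The second Bambi probe, A_52_P634995, was above background in neither channel on any array and was not tested. The genes with ratios most like those of Bambi over the 4 arrays included Tedc2 and Pla2g2e, at root mean square differences of 0.06 and 0.07.

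**Figure D2:**
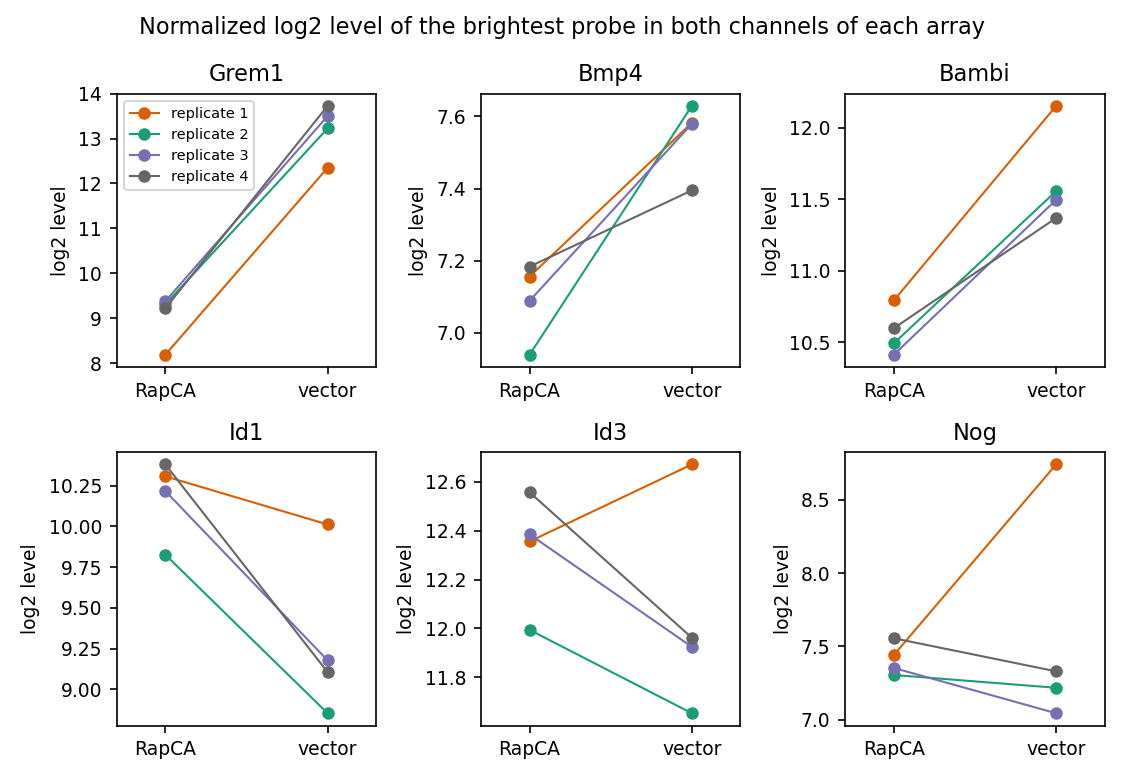
Normalized log2 level of the brightest probe of 6 genes in the RapCA-labelled channel (left) and the vector-labelled channel (right), with a line for each array. Each panel has its own axis range. The lines of Grem1, Bmp4 and Bambi all climb to the right, those of Id1 all descend, and in Id3 and Nog replicate 1 runs against the other 3 arrays.

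Of the Id targets, Id1 passed and Id2 and Id3 did not. Id1, whose product holds E proteins away from DNA, was higher in the RapCA-labelled channel on both of its probes. Probe A_51_P385786 had levels of 10.31, 9.83, 10.22 and 10.38 in the RapCA-labelled channel, against 10.01, 8.85, 9.18 and 9.11 in the vector-labelled channel. Every array had the higher level in the RapCA-labelled channel, but the vector level of replicate 1 exceeded the RapCA level of replicate 2, so the channels overlapped across arrays. Its ratio was 0.90 ± 0.42 (SD, n = 4; limma adjusted p = 0.00373), a 1.86-fold rise, and probe A_52_P533809 had 0.81 ± 0.40 (adjusted p = 0.00491). On replicate 1 both ratios were smaller, at 0.30 and 0.25, against 0.86 to 1.28 on the others. Without replicate 1 the mean ratios were 1.10 and 1.001.

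Id3, an inhibitor of the same class, had levels of 12.36, 11.99, 12.38 and 12.56 in the RapCA-labelled channel, against 12.67, 11.65, 11.93 and 11.96 in the vector-labelled channel. The ratio was -0.31 on replicate 1 and 0.34, 0.46 and 0.59 on replicates 2 to 4. The mean of 0.27 ± 0.40 did not pass (limma adjusted p = 0.202), with a 95% interval from -0.11 to 0.65. Without replicate 1 it was 0.46 and passed (limma adjusted p = 0.00232). Id2 was read by probes whose means had opposite signs. Probe A_52_P240542 had a ratio of -0.11 ± 0.14 and probe A_51_P219074 one of 0.18 ± 0.12, and neither passed (limma adjusted p = 0.419 and 0.180). Their 95% intervals, from -0.35 to 0.13 and from -0.06 to 0.41, both lay within a 2-fold change. Id4, the remaining gene of the family, was higher by 0.35 ± 0.22 on its brightest probe (limma adjusted p = 0.0397), and its other probe did not pass at 0.27 ± 0.10 (0.0521).

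**Figure D3:**
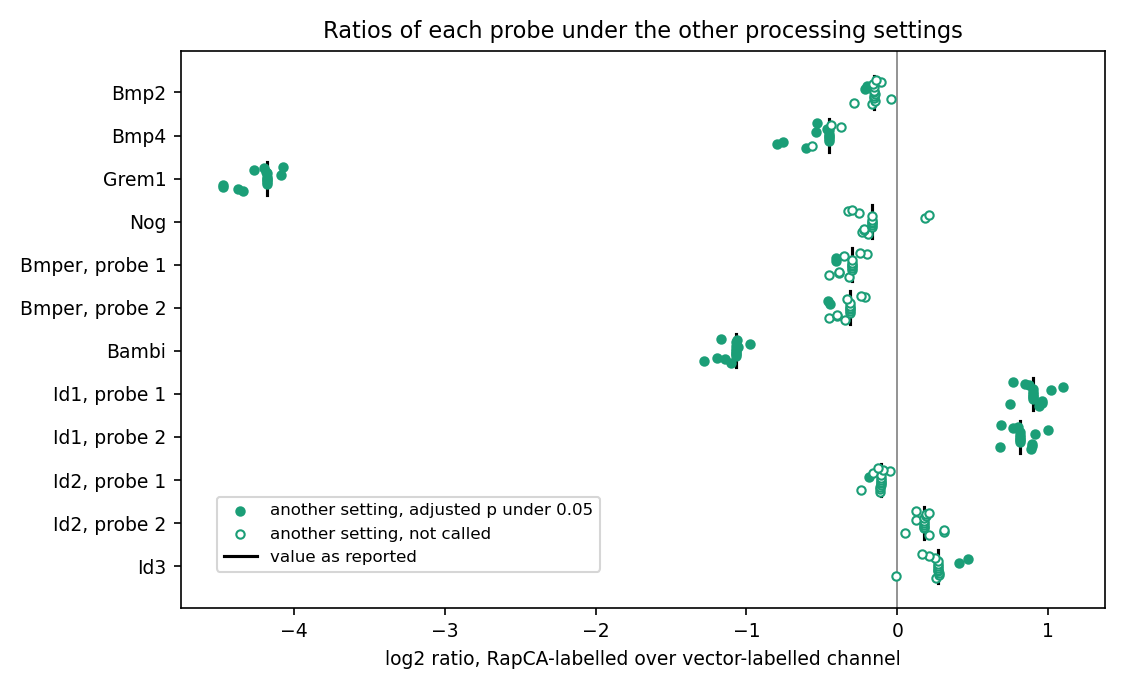
Log2 ratio of each tested probe under the 15 other processing settings (circles, filled where the adjusted p was under 0.05), with the value as reported (black bar). Grem1, Bambi and both Id1 probes kept their side of 0 and stayed filled throughout, while Nog and Id3 crossed 0.

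Another 65 BMP pathway genes were listed by their known roles, with earlier results of these data known. Of them, 60 were on the array and 41 were tested. Of these, 17 were higher and 8 lower in the RapCA-labelled channel, against 28.9% higher and 24.9% lower over all genes, with a median ratio of 0.18 against 0.02. Without replicate 3 the split was 14 higher and 4 lower, beside 2672 and 2109 of 12387 genes in all, and without replicate 1 it was 19 and 9, beside 4599 and 4215. With median centring it was 9 higher and 5 lower, beside 1542 and 2476 of 12388 genes. Of the 19 genes not tested, 18 were never above background, among them the ligand genes Bmp5, Bmp7, Bmp10 and Gdf2 and the SMAD gene Smad9. The counts by role below cover at most 10 tested genes each. They stand beside the same shares over all genes, 28.9% higher and 24.9% lower.

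Among the other ligands, 3 of 4 tested were higher and none lower. Gdf6 had levels of 9.06, 9.01, 8.81 and 8.86 in the RapCA-labelled channel, against 7.98, 7.54, 7.11 and 6.95 in the vector-labelled channel, which did not overlap. Its ratio was 1.54 ± 0.35 (SD, n = 4; limma adjusted p = 0.000224). Bmp3, a ligand known to oppose the bone-forming BMPs, had 1.07 ± 0.31 (0.000753), which was 1.99 with the scanner software's ratios. Bmp6 had 0.52 ± 0.07 (0.00354), not passing with median centring (0.150).

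Of 10 other antagonist or modulator genes tested, 3 were higher and 1 lower. The largest ratio was that of Fstl1, a secreted follistatin-like glycoprotein, with levels of 16.80, 17.00, 17.02 and 16.96 in the RapCA-labelled channel, against 13.11, 14.24, 14.10 and 14.05 in the vector-labelled channel. Its ratio of 3.07 ± 0.42 was an 8.37-fold rise (limma adjusted p = 2.87e-05). Nbl1, a secreted BMP antagonist, and Fstl3 were higher at 0.71 ± 0.25 and 0.63 ± 0.37. Nbl1 lost its call with median centring, where its ratio was 0.17 (limma adjusted p = 0.378), and Fstl3 lost its own without replicate 2, 3 or 4 (limma adjusted p = 0.0629, 0.0579 and 0.0538). Chrd, which encodes Chordin, did not pass at 0.04 ± 0.14. Bmp1, a protease that cleaves Chordin, was higher at 1.23 ± 0.12.

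Receptor genes were higher at 5 of 10 tested and lower at 1. Acvrl1, which encodes the type I receptor ALK1, had levels of 9.46, 8.97, 9.35 and 9.44 in the RapCA-labelled channel, against 8.55, 7.41, 7.24 and 7.43 in the vector-labelled channel. The channels did not overlap, and the ratio was 1.65 ± 0.54 (limma adjusted p = 0.000596). The type II receptor genes Bmpr2 and Acvr2a had 0.92 ± 0.18 and 0.86 ± 0.17, and the type I receptor gene Acvr1 had 0.92 ± 0.40. With median centring these 3 did not pass (limma adjusted p = 0.0583, 0.0985 and 0.169).

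Among SMAD and SMURF genes, 2 of 7 tested were higher and 3 lower. Smad6, an inhibitory SMAD and a target of BMP signalling, had levels of 9.65, 9.38, 9.28 and 9.51 in the RapCA-labelled channel, against 9.40, 8.50, 8.21 and 8.22 in the vector-labelled channel. The vector level of replicate 1 lay among the RapCA levels. The ratio of Smad6 was 0.88 ± 0.44 (limma adjusted p = 0.00485). Smad7, also an inhibitory SMAD, went the other way, at -0.37 ± 0.19 (limma adjusted p = 0.0274). Smad1, a signal transducer of the pathway, was lower on both probes, at -0.85 ± 0.35 and -0.73 ± 0.36. Smad5 probes disagreed, with 0.96 ± 0.57 and 0.85 ± 0.27 on a pair of them and -0.43 ± 0.08 on the other, all of which passed. Smurf2, a ubiquitin ligase for SMADs and receptors, was lower at -0.51 ± 0.17 on its brightest probe, a call lost without replicate 3 (adjusted p = 0.0510), and its other probes did not pass at 0.06 ± 0.53 and 0.26 ± 0.34. With median centring the brightest probes of Smad5 and Smurf2 did not pass (limma adjusted p = 0.266 and 0.125).

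Of 9 other targets tested, 3 were higher and 3 lower. Hes1, also a Notch target, was higher at 2.19 ± 0.29 and Runx2, a regulator of bone formation, at 0.78 ± 0.14. Another Runx2 probe passed at 0.69 ± 0.23 and one more did not at -0.03 ± 0.28, while the first lost its call with median centring (limma adjusted p = 0.110). Msx2, a homeobox target of BMPs, had levels of 7.98, 7.61, 7.54 and 7.72 in the RapCA-labelled channel, against 9.49, 8.74, 8.72 and 8.51 in the vector-labelled channel. It was lower at -1.15 ± 0.30 (limma adjusted p = 0.000494), with no overlap of the channels. Gata3, a transcription factor gene, was lower at -0.51 ± 0.15.

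**Figure D4:**
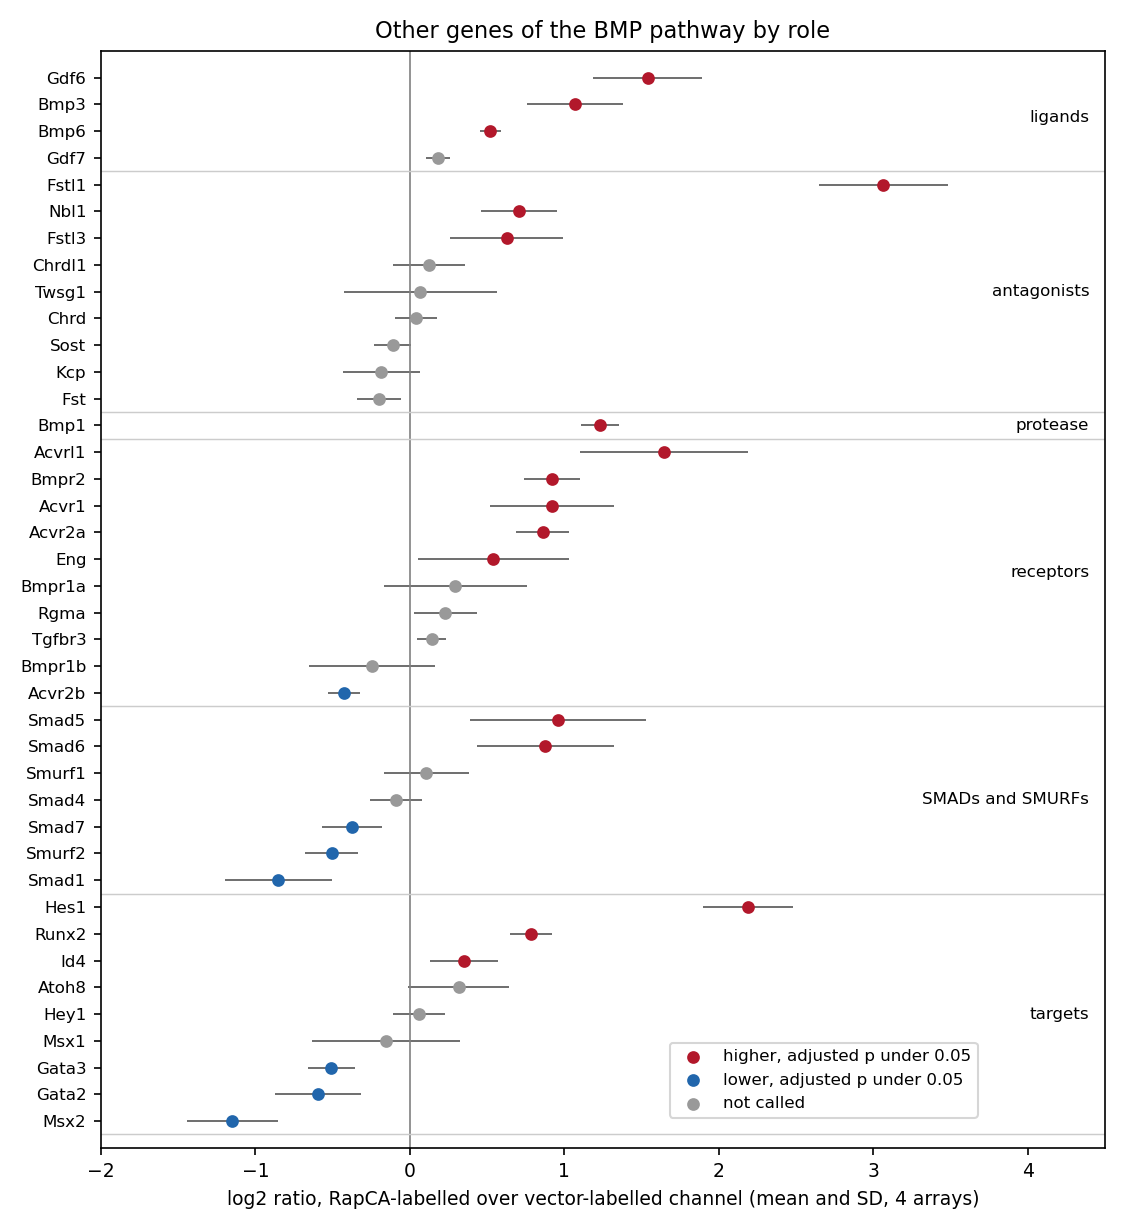
Mean log2 ratio and SD over the 4 arrays for 40 of the 41 tested genes of the pathway other than the 9 members, by role, with genes passing an adjusted p of 0.05 in red (higher in the RapCA-labelled channel) or blue (lower). Fstl1, Hes1 and Acvrl1 lie farthest to the right, and Msx2 and Smad1 farthest to the left.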

How the data were processed

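RNA of both kinds of cells was compared on 4 two-colour arrays of 1 slide with 1 scan. Per the file headers, the deposited intensity values are median spot and local background brightness, not normalized. Both the scanner files and the values table of the series hold deposited log10 ratios, Cy5 over Cy3. The scanner software corrected them, per the file headers. For the 40929 probes with a single spot, the deposited ratios differed by at most 5e-05. Other probes were not compared in this way. The mean log2 ratio of Bmp2 was -0.15 with the scanner software's ratios and -0.04 with the values table of the series. The headers give Feature Extraction 10.7.3.1 and the design build mm9, and the submitters' processing notes give version 10.9. Spot flags are those of the scanner software, as deposited.

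Background was corrected with normexp (offset 50), ratios were normalized by loess with control spots at weight 0, flagged spots were left out and spots averaged per probe. Levels were scaled between arrays by Aquantile. Probes that the software marked well above background on every array, in the same channel or in both, were tested against 0 with limma, on at least 3 arrays. No spot was saturated, and the number of arrays limits the precision. Symbols came from RefSeq or Ensembl accessions for 64.8% of probes. Counts of genes use the brightest tested probe. Named were every probe of the 9 genes, up to 4 called genes per role of the pathway list by smallest p, probes that disagree with them, and the 3 genes nearest in ratio. Of the genes so chosen, 2 are not reported here, and the counts keep them. Id4 and its second probe, Chrd, Smad7, and the untested genes were named beyond that rule after their values were seen. The members and lists were chosen with earlier results of these data known. The fit was tested on simulated data. Tools were R 4.3.3, limma 3.58.1, the package data.table (version 1.17.8), Python 3.11.15, pandas 2.3.3 and matplotlib 3.10.9. The alternatives covered background, normalization, ratio source, filters, outlier spots, variance models, array weights, pairing and each array left out.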

Additional observations from a re-analysis of the deposited data

Results flagged for a closer look

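On 4 of 32 probes examined 1 array lay far from the other 3 by Dixon's test, and each time it was replicate 1. For independent values chance does so for about 1 probe in 20. These probes shared the same 4 arrays and some were chosen by smallest p, so that rate is no measure of chance for them. Nog had a ratio of -1.30 on replicate 1, against 0.09 to 0.31 on replicates 2 to 4. Fstl3 had 0.076, against 0.80 to 0.82. Acvr2a had 1.11, against 0.74 to 0.80. Smad5 had 1.81 on its brightest probe, against 0.61 to 0.74.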

How the results depend on the processing

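Grem1, Bambi and both Id1 probes kept their direction and call under all 15 alternatives, with ratios of -4.47 to -4.07, -1.28 to -0.97, 0.74 to 1.10 and 0.68 to 1.001. Bmp4 lost its call under 3 of them. Array weights called 8 of the 9 genes, beside 9586 of 12388 genes in all, and 17640 of 23497 probes. Median centring in place of loess called 6546 probes, 4018 genes and 14 pathway genes, with 40.1% of called probes higher against 53.3%, and moved the median ratio of all probes to -0.14 from 0.01. On that scale Id3 was at -0.010, which is above that median. Nog turned to 0.19 with array weights, and leaving out each array in turn gave it -0.33 to 0.21. Leaving out each array in turn gave 3 to 7 of the 9 genes, 18 to 28 pathway genes, 4781 to 8814 genes and 7912 to 15739 probes called. The channels of an array were also treated as separate, that is with no replicate block. That called the same 4 of the 9 genes and 23 pathway genes, beside 5832 of 12388 genes in all, and 10248 probes. The cause of these shifts was not tested. Dye and vector cannot be told apart, and genes near background have ratios pulled towards 0 by the offset.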
